A study of Rattus norvegicus with 6 samples.

Results

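Hspb1, Hsph1, Hspa8, Hspd1 and Hspe1 encode heat shock proteins that work in the cytosol or the mitochondria. Their transcripts were followed in rat liver on an Affymetrix rat expression array, which reads each gene through 1 or more probe sets. A probe set was counted where its single annotated gene symbol was one of these 5, which gave 10 of the 8740 probe sets that are not array controls and 4 of the 4736 genes so annotated. Hspb1 had 4 of the probe sets, and Hsph1, Hspd1 and Hspe1 had 2 each. Hspa8, the constitutive cytosolic Hsp70, had 0 of them, because both probe sets that list it also list another gene, and no value is given for it. One further probe set that lists Hspb1 together with another gene was left out for the same reason.

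The NASH group held 3 samples from male Sprague Dawley rats fed a liquid diet with 70% corn oil that supplied 220 kcal a day for each kg of metabolic mass. The Control group held 3 samples from rats fed a diet with 5% corn oil at 187 kcal on the same basis, and both diets were given by total enteral nutrition for 3 weeks. No genetic change or other agent is named for either group, and the model differs from its control in energy as well as in fat. The labels do not say whether each sample is its own animal, and the spread between arrays may be in part technical.

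Heat shock proteins are chaperones, which hold unfolded proteins in solution and help them fold. Most are switched on by the transcription factor Hsf1, which is freed when unfolded protein builds up and binds as a trimer to heat shock elements, inverted repeats of a short unit in the promoters of its targets. Hspb1 (Hsp25 or Hsp27) is a small heat shock protein that binds unfolding proteins without ATP. Hsph1 (Hsp110) exchanges the nucleotide of Hsp70 and so resets its cycle. Hspd1 (Hsp60) is the folding chamber of the mitochondrial matrix and Hspe1 (Hsp10) is its lid, and in mammals their genes lie head to head and share the stretch between their starts. Hepatocytes, which secrete most plasma proteins and are rich in mitochondria, use the chaperones of both compartments.

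The stretches before the annotated starts of Hspb1, Hsph1 and Hspe1 are printed to show where the letters of such elements stand. That of Hspd1 is left out, because its element run lies in the bases it has in common with Hspe1. RefSeq windows (build GRCr8, 250 bases before to 50 after the start, 4 of 4 genes matched) were searched for the letters of a heat shock element. With 2 units these are GAANNTTC or TTCNNGAA, with 3 units TTCNNGAANNTTC or its reverse complement GAANNTTCNNGAA, and with 4 units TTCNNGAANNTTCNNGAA or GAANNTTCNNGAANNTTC, so that both strands were read. Matches with 3 or 4 units hold overlapping 2-unit matches. Capitals mark every base inside a 2-unit match, and the 250 bases before each start read 5′ to 3′ on the gene's own strand:
Hspb1, chr12:26432302-26432551, minus strand: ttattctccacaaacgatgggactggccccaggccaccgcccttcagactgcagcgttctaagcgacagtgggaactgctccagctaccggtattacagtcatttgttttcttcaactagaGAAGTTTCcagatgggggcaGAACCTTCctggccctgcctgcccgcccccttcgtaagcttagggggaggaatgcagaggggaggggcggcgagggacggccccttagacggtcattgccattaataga
Hsph1, chr12:10427118-10427367, plus strand: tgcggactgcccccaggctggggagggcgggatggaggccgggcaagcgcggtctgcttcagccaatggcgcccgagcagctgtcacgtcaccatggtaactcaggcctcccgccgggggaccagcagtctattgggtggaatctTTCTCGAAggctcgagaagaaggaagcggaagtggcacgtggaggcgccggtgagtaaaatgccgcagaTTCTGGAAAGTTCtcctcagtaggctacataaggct
Hspe1, chr9:64084077-64084326, plus strand: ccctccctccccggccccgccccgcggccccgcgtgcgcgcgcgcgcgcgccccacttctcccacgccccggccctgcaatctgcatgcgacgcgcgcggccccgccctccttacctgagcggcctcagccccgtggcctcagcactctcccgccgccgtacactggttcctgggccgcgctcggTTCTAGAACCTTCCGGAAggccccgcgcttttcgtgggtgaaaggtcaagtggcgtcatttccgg

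Hspb1 held 2 separate 2-unit matches, whose first bases lay at -129 and -109 counted from the start at 0. Hsph1 had a 2-unit match at -105 and a run of 3 units at -36. Hspe1 held a run of 4 units at -65, and the same run stood at -242 in the window of Hspd1, which lies on the other strand. The starts of Hspd1 and Hspe1 were 290 bases apart and their windows had 211 bases in common. All 4 windows therefore held a match, and Hspa8 was not looked up. Of the 33469 rat windows of that length, 15.9% had a 2-unit match, 0.798% a run of 3 units and 0.0478% (16 windows) a run of 4. Other chaperone genes also had 2-unit matches, in 5 of 15 of the Hsp70, Hsp110 and Hsp40 families and 4 of 15 mitochondrial ones. For Hsp90 and its partners it was 5 of 17, and 1 of these had a run of 4. Small heat shock proteins had 2 of 5, TRiC and prefoldin 3 of 12, the endoplasmic reticulum 2 of 13 and heat shock factors 0 of 1. A run of 3 units also stood in 1 gene each of the Hsp70, Hsp110 and Hsp40 families, TRiC and prefoldin, and the endoplasmic reticulum. It stood in 0 of the small heat shock, mitochondrial and heat shock factor genes. A match describes letters and does not show that a factor binds there.

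**Figure D1:**
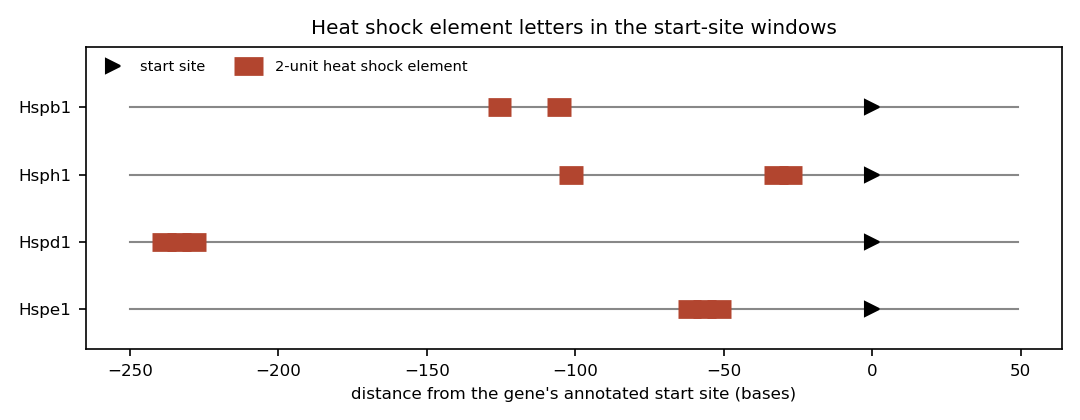
Position of 2-unit heat shock element letters (boxes) in the RefSeq windows of the 4 genes, as distance in bases from the annotated start (triangle, 0) on each gene's own strand. Hspb1 had 2 separate boxes, Hsph1 a box and a run of 3 units, and Hspd1 and Hspe1 a run of 4 units each, which is the same stretch of the chromosome seen from both strands.

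Levels are log2 of the quantile-normalized array signal after a small offset was added, so 1 unit is close to a doubling and dim probe sets show less than their true change. Levels of different probe sets are not set against each other, because each has its own brightness. Of the 10 probe sets, 9 lay above the brightness filter that 5244 probe sets passed. The genes were chosen by how NASH compared with Control on these same arrays, so these differences are given as a description, with no test. Values are group means ± SD with 3 arrays in each group, and differences carry the standard error (SE) of limma's fit across all 5244 probe sets.

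The difference NASH minus Control was above 0 in 9 of 9 probe sets above the filter, against 2469 of the 5244 tested (47.1%). Its median was 0.58 over the 9 and -0.02 over all tested, whose middle range from the lower to the upper quartile ran from -0.24 to 0.22. All 3 NASH arrays lay above all 3 Control arrays in 5 of the 9, against a background of 6.54% of all tested. In the deposited signals, before scaling, the groups overlapped for M86389cds_s_at of Hspb1 and for both probe sets of Hspd1. None of the 9 passed limma's Benjamini-Hochberg adjusted p under 0.05, against a background of 0.133% (7 probe sets), and 412 of all tested had an unadjusted p under 0.05. Nothing is read from these counts, since the same contrast picked the genes.

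The 4 probe sets of Hspb1 gave different sizes of difference, from 0.27 to 1.88, and are therefore taken one at a time. In rc_AA998683_g_at the level was 6.99, 7.43 and 7.97 in NASH 1, 2 and 3, against 5.79, 4.98 and 5.99 in Control 1, 2 and 3. The groups were a full unit apart at their closest, which is the widest separation among the 10 probe sets. Means were 7.46 ± 0.49 in NASH and 5.59 ± 0.54 in Control, a difference of 1.88 (SE 0.35) or 3.67-fold. The deposited signals before any scaling were 137, 169 and 193 in NASH and 62.0, 31.3 and 60.8 in Control, again without overlap.

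M86389cds_s_at read 6.33, 5.92 and 6.72 in NASH and 5.82, 4.68 and 5.16 in Control. Here NASH 2 and Control 1 almost touched, and the lowest value again belonged to Control 2. The means of 6.32 ± 0.40 in NASH and 5.22 ± 0.57 in Control differed by 1.10 (SE 0.33), which is 2.15-fold. With rc_AI176658_s_at the level was 6.87, 6.65 and 7.50 in NASH, against 6.15, 6.49 and 6.08 in Control. NASH 3 stood above the other arrays, Control 2 was the highest of its group, and the groups did not overlap. That probe set averaged 7.01 ± 0.44 in NASH and 6.24 ± 0.22 in Control, a difference of 0.77 (SE 0.27) or 1.71-fold.

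The fourth, rc_AA998683_at, is named after the same cDNA sequence as the probe set with the widest difference. It read 6.86, 7.02 and 7.28 in NASH and 6.77, 7.08 and 6.51 in Control. The groups overlapped, since Control 2 exceeded both NASH 1 and NASH 2. Means were 7.06 ± 0.21 in NASH and 6.78 ± 0.29 in Control, a difference of 0.27 (SE 0.23) or 1.21-fold. These 2 probe sets of 1 cDNA thus differed by 1.60 in their NASH minus Control value.

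Likeness of pattern was measured as the root mean square difference between 2 probe sets over the 6 arrays, each centred on its own mean, where 0 is an identical pattern. Between rc_AA998683_at and rc_AA998683_g_at it was 0.94, which ranked 5054 among 5243 probe sets in closeness to the first. M86389cds_s_at and rc_AI176658_s_at were 0.46 apart, and rc_AA998683_at and rc_AI176658_s_at 0.31 apart. The gap between the highest and lowest centred Hspb1 probe set was 0.62, 0.88 and 1.08 in NASH 1, 2 and 3, against 0.77, 1.71 and 0.20 in Control 1, 2 and 3. Control 2 was thus the array on which the Hspb1 probe sets differed most, with rc_AA998683_g_at and M86389cds_s_at at their lowest and the other 2 probe sets at the top of the Control group.

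**Figure D2:**
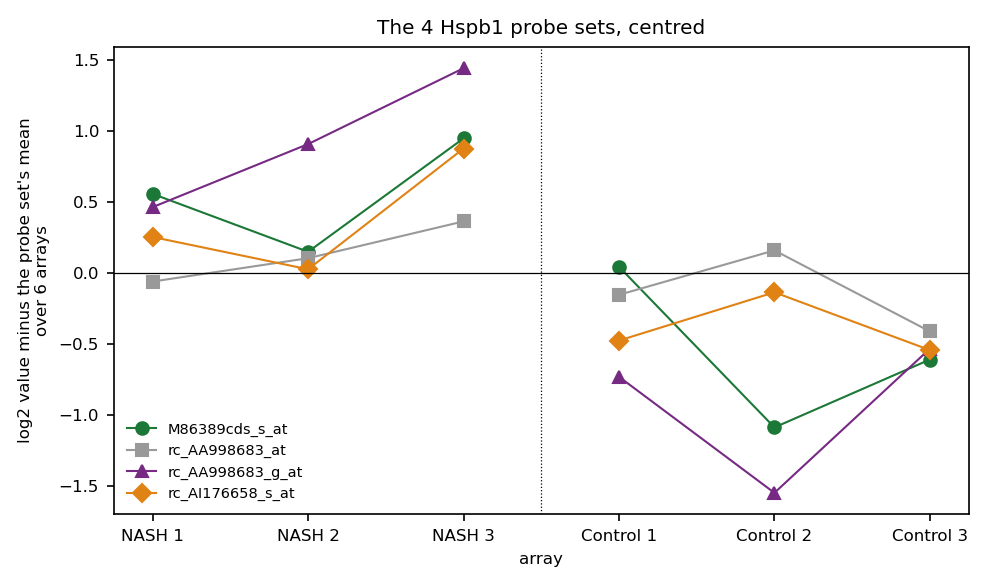
Each Hspb1 probe set in each array, as its log2 value minus its own mean over the 6 arrays (vertical axis, log2 units), with NASH arrays left of the dotted line and Control arrays right of it. The lines only join the points of a probe set. In Control 2 the 4 probe sets spread over 1.71 and in Control 3 over 0.20, and rc_AA998683_at had the smallest difference between the groups.

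Hsph1 was read by 1 probe set above the filter. In rc_AI236601_at its level was 7.21, 6.62 and 6.95 in NASH, against 6.75, 5.51 and 6.77 in Control. Control 2 lay more than a unit under every other array, while the other Control arrays overlapped the NASH group. The means of 6.93 ± 0.30 in NASH and 6.34 ± 0.72 in Control differed by 0.58 (SE 0.37), and without Control 2 the difference was 0.17. The other probe set, AA108277_at, did not pass the filter. Its level was 3.84, 4.13 and 4.39 in NASH and 4.33, 3.36 and 1.88 in Control, where the deposited signal of Control 3 was only 1.11. The groups overlapped there too, and the difference of 0.93 was 0.28 without Control 3 and 1.50 without Control 1.

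On the normalized scale Hspd1, the mitochondrial chamber, was higher in every NASH array than in every Control array with both of its probe sets. X54793_at gave 10.11, 10.23 and 10.25 in NASH, against 9.76, 9.52 and 9.99 in Control. The NASH arrays lay close together and Control 2 was lowest. Means were 10.20 ± 0.07 in NASH and 9.76 ± 0.23 in Control, a difference of 0.44 (SE 0.17) or 1.36-fold. With rc_AA858640_s_at the level was 9.22, 9.28 and 9.25 in NASH and 9.11, 8.68 and 8.23 in Control. Control 1 lay just under the NASH arrays and Control 3 about a unit below them. The means of 9.25 ± 0.03 in NASH and 8.67 ± 0.44 in Control differed by 0.58 (SE 0.24), or 1.50-fold. Before scaling the groups overlapped with both probe sets. The deposited signals of X54793_at were 1221, 1071 and 933 in NASH and 1122, 651 and 1064 in Control. Those of rc_AA858640_s_at were 700, 565 and 470 in NASH and 685, 356 and 301 in Control.

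Hspe1, the lid encoded across the shared stretch from Hspd1, showed overlapping groups with both of its probe sets. In rc_AI170613_at the level was 9.98, 9.90 and 9.69 in NASH, against 9.82, 9.30 and 9.98 in Control. Only Control 2 stood apart, below the other 5 arrays. Means of 9.85 ± 0.15 in NASH and 9.70 ± 0.35 in Control differed by 0.15 (SE 0.21), and the sign turned to -0.04 without Control 2. rc_AI170613_g_at read 9.52, 9.49 and 9.39 in NASH and 9.41, 8.88 and 9.66 in Control. Its means of 9.47 ± 0.07 in NASH and 9.32 ± 0.40 in Control also differed by 0.15 (SE 0.22), which became -0.07 without Control 2. In the deposited signals rc_AI170613_at averaged 872 ± 245 in NASH and 924 ± 328 in Control, so the sign depended on scaling as well.

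The probe sets of Hspe1 followed each other closely across arrays, with a root mean square difference of 0.06. Those of Hspd1 were 0.35 apart, and Control 3 was the highest Control array with X54793_at and the lowest with rc_AA858640_s_at. Between the genes, X54793_at lay 0.20 and 0.19 from the 2 Hspe1 probe sets, while rc_AA858640_s_at lay 0.43 and 0.45 from them. Which Hspd1 probe set was read thus changed how closely Hspd1 and Hspe1 moved together over the 6 arrays.

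**Figure D3:**
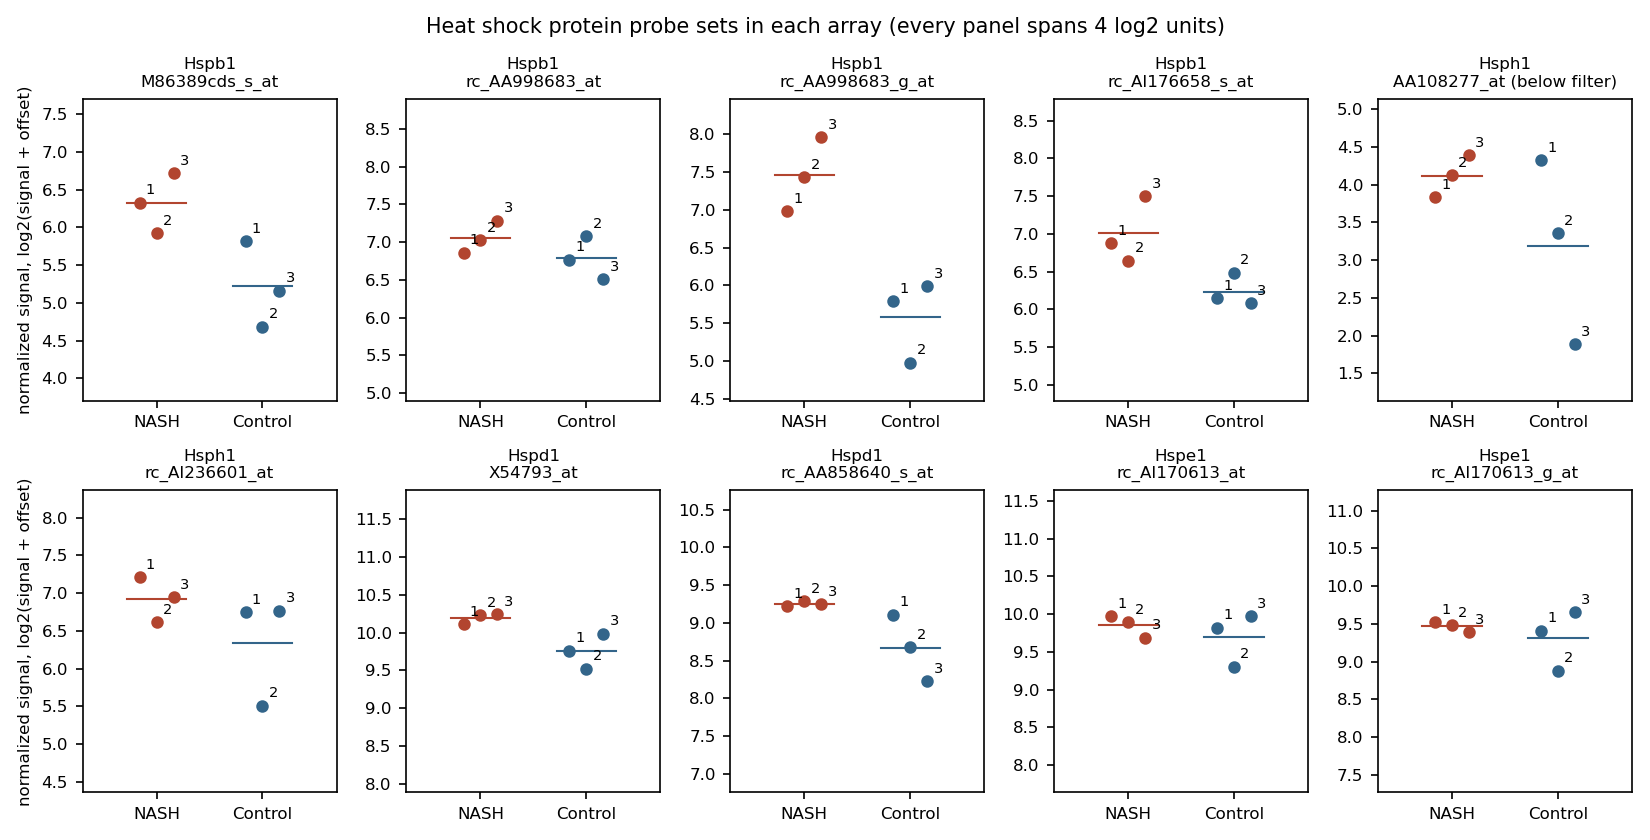
Level of each of the 10 probe sets in each array (vertical axis, normalized log2 signal plus offset), NASH in red on the left and Control in blue on the right of each panel, with bars at the group means and array numbers beside the points. Every panel spans the same number of log2 units. The 3 NASH points lay above all 3 Control points for 3 Hspb1 probe sets and for both Hspd1 probe sets.

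Control 2 and Control 3 carried most of the low values. Control 2 was the lowest of the 6 arrays in 6 of the 9 probe sets and Control 3 in the other 3, while among all tested Control 2 was lowest in 22.1% and Control 3 in 21.4%. The median centred level of the 9 was 0.25, 0.12 and 0.32 in NASH 1, 2 and 3, against 0.02, -0.47 and -0.41 in Control 1, 2 and 3. Control 1 therefore stood between the NASH group and the other Control arrays. The SD was larger in Control than in NASH in 9 of the 10 probe sets, rc_AI176658_s_at of Hspb1 being the exception.

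Leaving out each array in turn moved the difference of rc_AA998683_g_at between 1.57 (without Control 2) and 2.11 (without NASH 1). For M86389cds_s_at it ran between 0.83 (without Control 2) and 1.40 (without Control 1), and for rc_AI176658_s_at between 0.52 (without NASH 3) and 0.95 (without NASH 2). rc_AA998683_at ran between 0.13 (without Control 3) and 0.42 (without Control 2). Every Hspb1 probe set thus kept a value above 0 whichever array was left out. X54793_at of Hspd1 ran between 0.32 (without Control 2) and 0.55 (without Control 3), and rc_AA858640_s_at between 0.36 (without Control 3) and 0.80 (without Control 1). rc_AI236601_at of Hsph1 ran between 0.17 (without Control 2) and 0.80 (without Control 3). Hspe1 was the only gene whose sign turned.

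**Figure D4:**
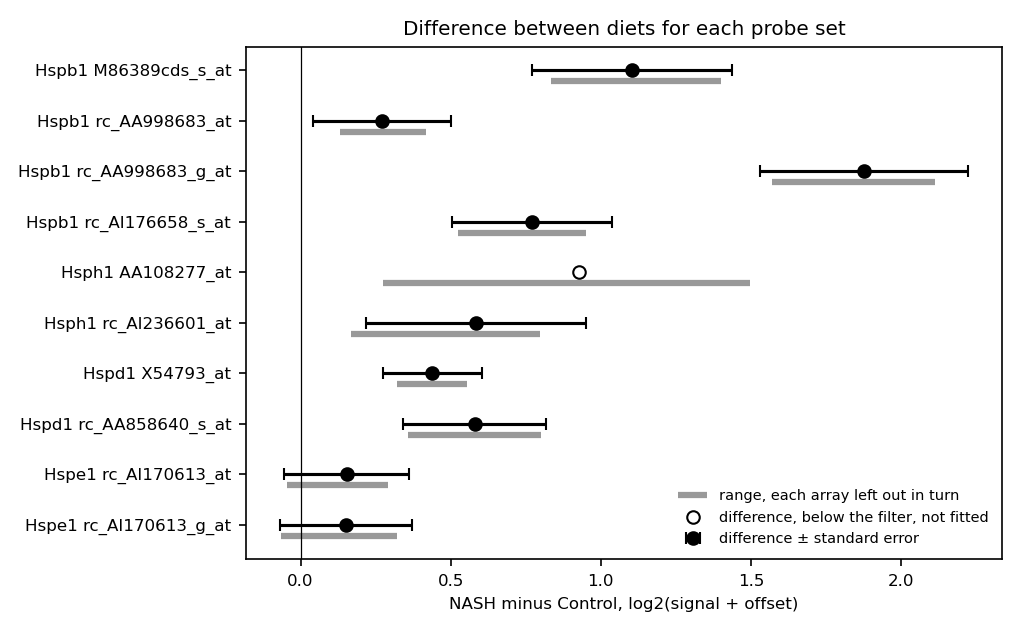
Difference NASH minus Control (horizontal axis, log2 units) of each probe set, with its standard error (black bar) and the range when each array is left out in turn (grey bar). The open point is the Hsph1 probe set below the filter, which has no standard error. Differences ran from 0.15 for Hspe1 to 1.88 for an Hspb1 probe set, and the grey bars of both Hspe1 probe sets crossed 0.

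The instrument records held a filled wash entry for NASH 1, NASH 2, Control 1 and Control 3 and a blank one for NASH 3 and Control 2. Within the 4 filled arrays the difference of rc_AA998683_g_at was 1.32, and between the 2 blank ones it was 2.99. For M86389cds_s_at these values were 0.64 and 2.04, for rc_AI176658_s_at 0.65 and 1.01, and for rc_AA998683_at 0.30 and 0.20. rc_AI236601_at of Hsph1 gave 0.16 and 1.44. X54793_at of Hspd1 gave 0.30 and 0.72, and rc_AA858640_s_at 0.59 and 0.57. The Hspe1 probe sets gave 0.04 and 0.38 for rc_AI170613_at and -0.03 and 0.51 for rc_AI170613_g_at. Differences were thus smaller among the filled arrays for all but rc_AA998683_at and rc_AA858640_s_at. The blank pair is NASH 3 and Control 2 alone, and Control 2 was the lowest array in 6 of the 9 probe sets above the filter. Both kinds of wash entry held as many NASH as Control arrays, so a block for it leaves each difference as it is by construction. What part the wash played was not tested.

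The arrays correlated between 0.93 and 0.97, and none repeated another. Trimmed mean signals were 73.6 to 107 in NASH and 88.3 to 117 in Control (exact permutation test, two-sided, p = 0.5, where 0.1 is the smallest p possible). The 3′ to 5′ signal ratio of the actin control, which climbs with RNA breakdown, was 2.18 to 2.93 in NASH and 2.15 to 5.07 in Control (exact permutation p = 0.7), and that of Gapdh was 1.08 to 1.22 in NASH and 1.10 to 2.04 in Control (exact permutation p = 0.4). Control 3 had the top value of both. It was also the lowest array for rc_AA998683_at and rc_AI176658_s_at of Hspb1, AA108277_at of Hsph1 and rc_AA858640_s_at of Hspd1, and the part of RNA quality in these values was not tested.

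The tissue matched its label, with the summed signal of 11 hepatocyte genes at 41247 to 43558 in NASH and 40819 to 45174 in Control and none of them at 0. In bulk liver, fewer cells of a type and less RNA per cell cannot be told apart. NASH 2 stood out in muscle and fat genes. Its summed signal of 12 skeletal muscle genes was 2772, while NASH 1 and NASH 3 had 162 and 193 and the Control arrays 126 to 214. The sum of 9 adipose genes was 4327 in NASH 2, while NASH 1 and NASH 3 had 579 and 669 and the Control arrays 503 to 516. Acta1, the actin of skeletal muscle fibres, had a level of 10.54 in NASH 2, with 3.12 in NASH 1, 4.81 in NASH 3 and 1.98 to 3.64 in Control. Ckm, Atp2a1 and Tnnc2, a creatine kinase, a calcium pump and a troponin of muscle, were likewise highest in NASH 2. Myh4 of the same list went the other way and was lowest in NASH 2. Its level was 3.30 there, with 4.22 in NASH 1, 4.14 in NASH 3 and 3.81 to 4.72 in Control. Among the Hspb1 probe sets, NASH 2 was the lowest NASH array with M86389cds_s_at and rc_AI176658_s_at and the middle one with rc_AA998683_g_at and rc_AA998683_at. Without NASH 2 the difference was 1.89 for rc_AA998683_g_at and 1.30 for M86389cds_s_at. The summed signal of 10 lymphocyte genes was 205 to 345 in NASH and 151 to 167 in Control, and that of 5 macrophage genes was 688 to 1069 in NASH and 654 to 1115 in Control. Another 9 stellate and fibroblast genes summed to 359 to 1189 in NASH and 416 to 661 in Control, 3 endothelial genes to 91.9 to 128 in NASH and 84.4 to 116 in Control, and 4 cholangiocyte genes to 52.6 to 84.2 in NASH and 47.3 to 83.2 in Control. Their part in the heat shock values was not tested.

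The same fit was read for other chaperones outside the endoplasmic reticulum, listed by function. Of 78 listed genes, 31 had a single-symbol probe set, and 42 of their 53 probe sets, from 27 genes, passed the filter. The difference was above 0 in 32 (47.1% of all tested) and below 0 in 10, with a median of 0.23 against -0.02 over all tested. limma called 0 of the 42 (0.133% of all tested), while 3 had an unadjusted p under 0.05. NASH lay above Control without overlap in 7 of the 42 (6.54% of all tested) and below it in 2 (7.76% of all tested). Control 2 was the lowest array in 22 of the 42, and without it the median was 0.13 with 27 above 0. On the 4 arrays with a filled wash entry the median was 0.11 with 27 above 0. Without scaling between arrays it was 0.07 with 26 above 0, where the median of all tested was -0.17.

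Hsp90 and its partners finish the folding of kinases and steroid receptors. They had 12 of 14 probe sets above 0 (47.1% of all tested) and 0 called (0.133%), with a median difference of 0.43. Hsp90ab1, the constitutive cytosolic Hsp90, had 4 of them. Its rc_AI236795_s_at gave 10.88, 10.98 and 11.06 in NASH, against 10.62, 10.37 and 9.999 in Control. The groups did not overlap, and the difference of 0.65 had an adjusted p of 0.437 in limma; the other 3 probe sets gave 0.41 to 0.50. Stip1, which passes client proteins between Hsp70 and Hsp90, differed by 0.65 (adjusted p = 0.636), and Ppid, a prolyl isomerase that binds Hsp90, by 0.62 (adjusted p = 0.619). Without Control 2 these were 0.27 and 0.34. Control 2 was lowest in 11 of these 14, and without it 9 were above 0 and the median was 0.14.

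Members of the Hsp70, Hsp110 and Hsp40 families had 12 of 13 above 0 (47.1% of all tested) and 0 called (0.133%), with a median of 0.15. The count was 8 without Control 2 and 7 without scaling between arrays, where the median was 0.02. Dnaja2 and Dnajb1, Hsp40 partners that stimulate Hsp70, differed by 0.42 and 0.41 (adjusted p = 0.619 for each). Those values came from the probe set of each gene with the smallest p. The other Dnaja2 probe sets gave 0.20 and 0.44, and the other probe set of Dnajb1 gave 0.13. Dnajb5, another Hsp40, went the other way. It read 4.79, 3.80 and 4.83 in NASH and 5.35, 5.51 and 5.46 in Control, without overlap, a difference of -0.97 (adjusted p = 0.503), which was -0.63 without NASH 2. Hspa1a, the inducible Hsp70, had 1 single-symbol probe set, which lay below the filter at 3.64 ± 0.51 in NASH and 3.24 ± 0.21 in Control (SD, n = 3 each), and Hspa1b and Hsp90aa1 had none.

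The remaining groups were small, and the shares over all tested were again 47.1% above 0 and 0.133% called. Other small heat shock proteins had 3 of 4 above 0 and 0 called, and without NASH 2, where 3 passed the filter, 1 was above 0. Cryab, the alpha B crystallin of muscle and lens, read 3.85, 6.42 and 3.59 in NASH and 4.08, 3.91 and 4.38 in Control, so that its difference of 0.49 (adjusted p = 0.873) rested on NASH 2, the array with the muscle signal, and was -0.40 without it. Hspb6, a small heat shock protein of muscle, differed by 0.70 (adjusted p = 0.700), Cryaa by 0.26 (adjusted p = 0.791) and Hspb2 by -0.54 (adjusted p = 0.818), and NASH 2 was the highest array for Hspb6 and Cryaa. Hspb6 was at 0.41 without Control 2, Cryaa at 0.12 without Control 2 and 0.16 without NASH 2, and Hspb2 at 0.15 without NASH 3. It was Hspb6 that did not pass the filter without NASH 2. Other mitochondrial chaperones and proteases had 3 of 6 above 0 and 0 called. Hspa9, the mitochondrial Hsp70, differed by 0.68 in S75280_s_at (adjusted p = 0.755) and by 0.26 in S78556_at. The first of these rested on Control 3, with levels of 7.06, 6.38 and 6.49 in NASH and 7.004, 6.20 and 4.68 in Control, and it was 0.04 without that array and 1.20 without Control 1. Its nucleotide exchange factor Grpel1 differed by 0.26 (adjusted p = 0.738), and Trap1, the mitochondrial Hsp90, by -0.23 (adjusted p = 0.795). Grpel1 was at 0.14 without Control 2 and Trap1 at -0.07 without NASH 2. In the TRiC chaperonin and its partner prefoldin 1 of 3 was above 0 and 0 were called, with Cct3 at 0.51 (adjusted p = 0.672), Pfdn2 at -0.19 (adjusted p = 0.909) and Cct6a at -0.12 (adjusted p = 0.945). Cct3 was at 0.19 without Control 2, its lowest array, and the signs of Pfdn2 and Cct6a turned when single arrays were left out. Hsf1 itself had 2 probe sets above the filter, 0 called, at 0.15 and -0.26 (adjusted p = 0.913 and 0.840).

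Chaperones of the endoplasmic reticulum were read for comparison. There 8 of 27 probe sets had a difference above 0 (47.1% of all tested) and 19 below, with a median of -0.17. limma called 0 (0.133% of all tested), while 1 had an unadjusted p under 0.05 (412 of all 5244 tested). Ppib, a prolyl isomerase, differed by -0.60 without overlap (adjusted p = 0.443) in its probe set with the smallest p. The other Ppib probe set gave -0.41, with overlapping groups. Hsp90b1, the Hsp90 of that compartment, differed by -0.47 (adjusted p = 0.664) in its probe set with the smallest p. Serpinh1, the collagen chaperone, differed by 0.52 (adjusted p = 0.636). Without Control 3 that value of Hsp90b1 was -0.21 and without Control 2 it was -0.74, and its other 2 probe sets gave 0.21 and 0.17. Serpinh1 was at 0.27 without NASH 2. Whether the lists differ from each other was not tested.

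**Figure D5:**
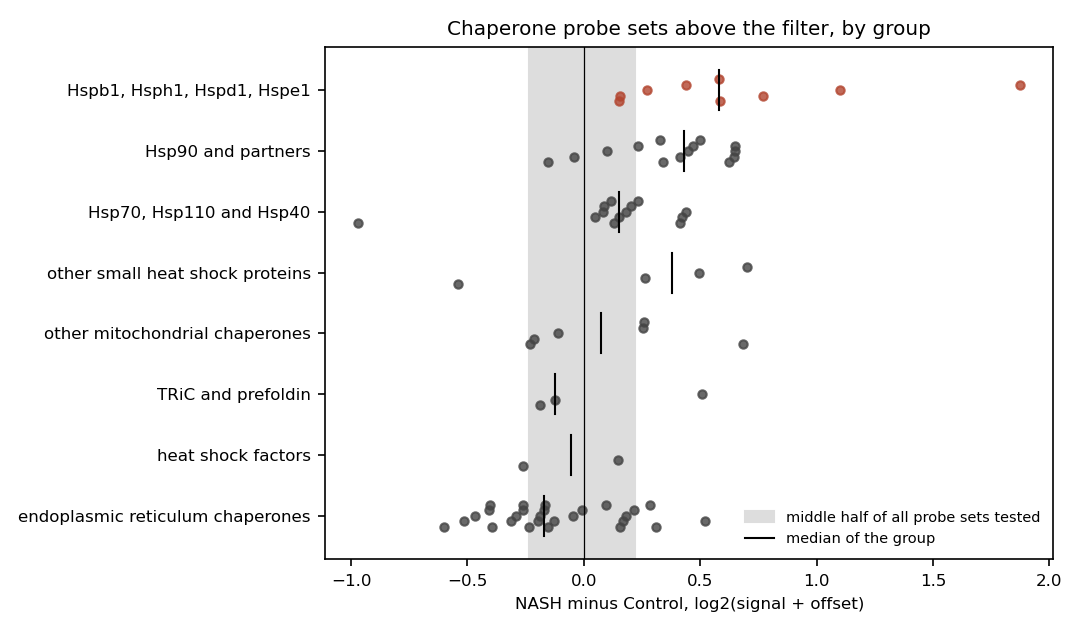
Difference NASH minus Control (horizontal axis, log2 units) of each chaperone probe set above the filter, by group, with the group median as a black line and the range from the lower to the upper quartile of all tested as a grey band. The 9 heat shock probe sets in red had a median of 0.58, Hsp90 and partners 0.43, and chaperones of the endoplasmic reticulum -0.17.

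For each gene the single-symbol genes closest in pattern to its brightest probe set were looked up among 4290 candidate probe sets over the 6 arrays, with no test. Hspd1 in X54793_at lay closest to rc_AI007820_s_at of Hsp90ab1, at a root mean square difference of 0.04. Psma5, a proteasome subunit, and Sfpq, a splicing factor, followed at 0.08 each, with a median candidate at 0.41. Another Hsp90ab1 probe set, rc_AI236795_s_at, was lowest in Control 3, which was the highest Control array with X54793_at. Hspe1 in rc_AI170613_at lay closest to Tle5 (0.06), Dnaja4 (0.07) and RT1-Ba (0.08), with a median candidate at 0.39. For Hsph1 in rc_AI236601_at the closest were Irf1 (0.09), Grin1 (0.11) and Scfd2 (0.14), with a median candidate at 0.62. Hspb1 in rc_AA998683_at had Mpp3 (0.05), Cr1l (0.08) and Klrk1 (0.08), with a median candidate at 0.40. The other Hspd1 probe set, rc_AA858640_s_at, looked up after its values were seen, lay closest to Rraga (0.04), Vcp (0.09) and Cdkn1a (0.09). A listed chaperone thus stood among the 3 closest genes of X54793_at and not among those of rc_AA858640_s_at. These likenesses share 6 arrays and their scaling.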

How the data were processed

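The deposited values are linear MAS5 signal intensities, one for every probe set of each array (MAS5 per the submitters' processing notes, version not given). No scaling target is given in the sources used here. The instrument records, used for the wash entry alone, hold other information and no expression values, per the file headers. The titles set the groups, because every description repeats that of 1 Control sample.

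The deposited intensities were not on a common scale, so the arrays were quantile normalized over all 8799 probe sets. An offset of 2.21, the 10th percentile of the deposited values, was added before log2, and 59 array controls were left out. Of the remaining 8740 probe sets, the 5244 whose mean log2 lay above the 40th percentile (3.94) were tested with limma 3.58.1 in R 4.3.3 (lmFit and trended eBayes, with 4 residual degrees of freedom and 3.90 from the prior). A Benjamini-Hochberg adjusted p under 0.05 over all tested was a call. The number of arrays limits the precision. Symbols came from the platform annotation, which gave 1 symbol for 7006 probe sets and several for 308. The fit was tested on simulated data.

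Genes were named by a rule: every member probe set, up to 3 genes of smallest p from each chaperone list, the 3 genes closest in pattern to each member gene, up to 4 genes of the marker list most raised in 1 array, and Hsf1, Hspa1a, Hspa1b, Hsp90aa1, Hsp90ab1, Hspa9, Dnajb1 and Cryab. The members and the 7 chaperone and 8 marker lists were chosen with earlier results of these data known. Samples with the same number did not deviate together (correlations of 0.0486, -0.0212 and 0.0731), so the numbers were not taken as pairs. Alternatives changed the scaling, the offset, the filter, the variance prior, the weights or blocks, the threshold, the probe set that stands for a gene, or the arrays kept.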

Additional observations from a re-analysis of the deposited data

How the results depend on the processing

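Over 18 alternative settings 0 of the heat shock probe sets and 0 of the other chaperones passed the adjusted threshold in limma. The count over all tested, 7 in the fit reported, was 14 without scaling, 14 at an adjusted p under 0.10, 0 without a filter (633 at an unadjusted p under 0.05), 3 without the intensity trend, 18 with array weights, 3 with the wash entry as a block, 1 on the 4 filled-wash arrays and 16 without both Control 2 and NASH 2. With the replicate number as a block it was 1, although the numbers were not taken as pairs. Leaving out each array in turn gave 0 to 17. The median difference of the heat shock probe sets was 0.30 on the 4 filled-wash arrays, against 0.58. Taking Hspb1 as the mean of its probe sets gave 1.00, against 0.27 for its brightest. Without scaling the median of all tested was -0.17, and differences there include this shift: X54793_at of Hspd1 was at 0.22 and rc_AI170613_at of Hspe1 at -0.05. Signs turned for Cct6a (0.10 with array weights, 0.021 on the filled-wash arrays, 0.25 without both arrays, -0.33 to 0.23 with each array left out), Hspb2 (0.34 on the filled-wash arrays, -0.93 to 0.15 with each array left out), Pfdn2 (0.31 without both, -0.42 to 0.20 with each left out) and Cryab (-0.51 without both, -0.40 to 1.01 with each left out). The cause was not tested.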

Other observations

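The Hspb1 probe set with the widest difference had other neighbours than the brightest one, looked up after the values were seen. Over the 6 arrays rc_AA998683_g_at lay closest to Msmo1, a demethylase of cholesterol synthesis, at a root mean square difference of 0.27 on the log2 scale. Next came Slc16a1, a lactate and ketone body transporter, at 0.44 and Acsl3, which joins fatty acids to coenzyme A, at 0.45, while the median candidate lay at 1.08. Being picked for that likeness, the 3 had positive NASH minus Control differences by choice, at 1.37 for Msmo1, 1.14 for Slc16a1 and 1.01 for Acsl3. Slc16a1 was also the second closest to M86389cds_s_at, at 0.24 with another of its probe sets, behind Inhbe at 0.23.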
